A study of Mus musculus with 9 samples.

Results

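The 10 genes *Mcl1*, *Bcl2*, *Bcl2l1*, *Bcl2a1a*, *Bcl2a1b*, *Bcl2a1d*, *Bcl2l11*, *Bid*, *Bax* and *Bak1* of the BCL2 family were followed in sorted lung neutrophils. They were chosen by symbol from the 22064 genes listed, and all 10 had values and passed the filter on low counts. The 9 RNA-seq libraries fell into 3 groups of 3. Ly6Ghi and Ly6Glow were CD45+ neutrophils sorted from the macrometastatic lung of female BALB/c mice, after 4T1-LM3 cells had been placed in the mammary fat pad. 4T1-LM3 was bred from 4T1, a mouse mammary carcinoma line, by 3 rounds of selection in mice for growth in the lung. NL was the Ly6Ghigh fraction from the lung of female BALB/c mice without a tumor. According to the methods, mice were 6 to 8 weeks old when bought, and neutrophils were gated on CD45, CD11b and Ly6g. The labels name no genetic change in these mice. The age at collection, and whether a library held cells of a single mouse or of a pool, are not given in the sources used here, so that p-values measure only the spread between these libraries. The description field of the NL libraries names only a Ly6Ghigh group, and their place in NL rests on the title and the treatment field.

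BCL2 family proteins decide at the outer membrane of mitochondria whether a cell enters apoptosis. Survival members such as MCL1, BCL2, BCL-xL and A1 hold the pore-forming effectors BAX and BAK and the BH3-only proteins, of which BIM and BID are the best known, in check. Neutrophils live briefly and are known to depend on MCL1, a protein that turns over fast. A1, encoded in the mouse by several near-identical genes, is a survival protein induced by inflammatory signals in leukocytes, and BIM is a driver of neutrophil death when survival factors are withdrawn. RNA levels say nothing of protein amount, of cleavage of BID or of where BAX lies in the cell.

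The libraries held between 15267177 and 17841807 estimated counts. TMM factors, edgeR's correction for libraries whose few abundant genes take up much of the total, were 0.803 to 0.807 in Ly6Glow, 0.945 to 0.950 in Ly6Ghi and 1.30 to 1.32 in NL. This scaling matters most for the comparisons with NL. Under TMM the median log2 fold change of the 14108 tested genes was −0.04 for Ly6Glow over Ly6Ghi, −0.09 for Ly6Ghi over NL and −0.16 for Ly6Glow over NL, against −0.28, −0.55 and −0.86 when libraries were scaled by their totals alone, an alternative chosen after seeing the data. Below, the difference from that median gene is given as "relative to the median gene" where the scaling decides a call. It was the same to within 0.002 under either scaling for every member, because a change of scaling shifts all genes nearly alike. Taking the median gene as reference is itself a choice of scaling. FPKM values follow the library totals.

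Transcripts of the sort marker *Ly6g* differed little between the gates of macrometastatic lung. They stood at 379.8, 361.2 and 380.1 CPM (counts scaled to the TMM-corrected library total) in Ly6Ghi, at 384.6, 403.2 and 394.0 CPM in Ly6Glow and at 120.2, 120.2 and 117.8 CPM in NL, although NL was sorted as Ly6Ghigh. Between Ly6Glow and Ly6Ghi the level differed by 0.08 ± 0.033 on the log2 scale under TMM (SE, edgeR adjusted p = 0.0577) and by −0.16 on library totals (edgeR adjusted p = 0.000258). The summed level of 9 mature neutrophil markers was 69100 to 71000 CPM in Ly6Ghi, 75400 to 77100 in Ly6Glow and 18000 to 18300 in NL. That of 8 granule genes of immature neutrophils was 34400 to 35100, 12600 to 13100 and 5350 to 5660 CPM in the same order. Markers of several other cell types were highest in NL. The 8 genes of lung structural cells summed to 1480 to 1620 CPM there against 169 to 177 in Ly6Ghi and 193 to 203 in Ly6Glow, and 10 of monocytes and macrophages to 1340 to 1400 against 603 to 618 and 532 to 552. The 11 alveolar macrophage genes summed to 1740 to 1760 CPM in NL, 1520 to 1580 in Ly6Ghi and 324 to 345 in Ly6Glow. Most of these 11 fell further than their sum. Their median log2 fold change was −2.40 for Ly6Ghi over NL and −5.09 for Ly6Glow over NL. None of these markers was at 0 in all libraries of a group. In bulk libraries fewer cells of a type and less RNA per cell cannot be told apart, and the part of these other cells in the results below was not tested. NL replicate 2 differed most from its group, and leaving out any single library changed no call on a member.

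The survival genes *Bcl2a1a*, *Bcl2a1b* and *Bcl2a1d* are close copies of each other on chromosome 9 (mm10 88956900 to 88962419 on the plus strand, 89199209 to 89207827 on the plus strand and 88723285 to 88731914 on the minus strand). Their sequences are shown first because they decide how far the counts of the 3 genes can be told apart. The first 120 coding bases of each, from the GENCODE transcripts, read as follows, with capitals at the 7 positions where the 3 genes differ.
Bcl2a1a: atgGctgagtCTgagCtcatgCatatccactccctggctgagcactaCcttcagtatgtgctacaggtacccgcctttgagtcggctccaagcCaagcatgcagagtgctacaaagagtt
Bcl2a1b: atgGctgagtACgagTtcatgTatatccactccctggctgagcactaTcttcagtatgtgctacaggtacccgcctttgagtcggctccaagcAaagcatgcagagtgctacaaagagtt
Bcl2a1d: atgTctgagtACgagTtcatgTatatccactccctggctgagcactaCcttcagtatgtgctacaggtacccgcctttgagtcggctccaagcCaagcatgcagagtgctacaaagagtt
Over the whole coding part 12 of 519 aligned positions differ. The transcripts are 98.2% identical between *Bcl2a1a* and *Bcl2a1b*, 98.8% between *Bcl2a1a* and *Bcl2a1d* and 99.1% between *Bcl2a1b* and *Bcl2a1d*. Of the windows of 150 bases, the read length in the labels, 28.2% of the *Bcl2a1a* transcript, 41.9% of *Bcl2a1b* and 30.3% of *Bcl2a1d* occur unchanged in another gene, so that the split of counts between them is uncertain and rests on the authors' estimation. The labels give paired reads, and the share of whole fragments common to the copies was not computed. The reference is that of C57BL/6J, whereas the mice were BALB/c. No such window was shared for *Mcl1*, *Bcl2*, *Bcl2l1*, *Bcl2l11*, *Bid* or *Bak1*, and 4.7% were for *Bax*, all with *Gm45808*, an annotated gene that overlaps its exons on the same strand.

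Promoters of the 3 copies are shown because the copies moved by unequal amounts. The windows cover 250 bases before to 50 bases after the start in RefSeq (GRCm38.p6), and capitals mark the 4 positions covered by all 3 windows at which they differ. Positions that any window lacks stay in lower case, also where the remaining windows differ.
Bcl2a1a, chr9:88956670-88956969, plus strand: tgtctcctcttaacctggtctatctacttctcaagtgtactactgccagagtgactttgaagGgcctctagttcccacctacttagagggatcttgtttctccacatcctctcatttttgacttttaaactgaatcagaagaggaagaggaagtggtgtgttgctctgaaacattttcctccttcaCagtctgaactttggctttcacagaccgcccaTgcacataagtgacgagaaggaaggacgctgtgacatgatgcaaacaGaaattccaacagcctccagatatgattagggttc
Bcl2a1b, chr9:89199023-89199322, plus strand: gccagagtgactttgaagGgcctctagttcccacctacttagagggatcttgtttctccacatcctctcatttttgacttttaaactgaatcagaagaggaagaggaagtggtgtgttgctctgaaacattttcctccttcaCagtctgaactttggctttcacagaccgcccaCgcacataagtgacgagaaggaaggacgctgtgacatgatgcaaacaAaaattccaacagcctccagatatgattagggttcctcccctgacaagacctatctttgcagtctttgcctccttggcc
Bcl2a1d, chr9:88731801-88732100, minus strand: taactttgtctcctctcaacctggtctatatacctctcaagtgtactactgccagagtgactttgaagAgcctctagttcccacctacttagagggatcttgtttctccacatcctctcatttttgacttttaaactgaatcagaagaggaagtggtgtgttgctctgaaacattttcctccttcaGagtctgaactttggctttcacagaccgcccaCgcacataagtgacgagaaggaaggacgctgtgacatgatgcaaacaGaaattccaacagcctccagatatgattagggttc
Aligned promoter bases were 99.2% identical between *Bcl2a1a* and *Bcl2a1b*, 98.0% between *Bcl2a1a* and *Bcl2a1d* and 98.8% between *Bcl2a1b* and *Bcl2a1d*, and *Bcl2a1d* lacked 6 bases that the others hold. On either strand, each of the 3 windows held the AP-1 letters TGANTCA, found in 7.8% of 32851 promoter windows, and the PU.1 letters GAGGAAGT, found in 3.2%. Of the other members only *Bak1* held the PU.1 letters and none the AP-1 letters. An NF-kB motif, present in 8.5% of windows, was found in 1 of the 3 windows of *Bcl2l1*, and the HIF letters ACGTG, present in 19.6%, in *Bax*. These motifs were chosen after the values were seen, the match is of letters only, and no binding was measured here.

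*Mcl1*, the survival gene on which neutrophils are known to depend, was by far the most abundant member in every group. It stood at 678.9, 738.8 and 697.9 FPKM (fragments scaled for transcript length and sequenced fragments) in NL, at 856.9, 855.6 and 868.5 in Ly6Ghi and at 1121, 1142 and 1178 in Ly6Glow. No 2 groups overlapped, and the order NL, Ly6Ghi, Ly6Glow was the same in CPM and in FPKM. By mean FPKM it ranked 59th among 18325 genes in NL, 68th in Ly6Ghi and 51st in Ly6Glow. *Mcl1* rose from Ly6Ghi to Ly6Glow by 0.65 ± 0.029 on the log2 scale (SE, edgeR adjusted p = 3.28e-14), from NL to Ly6Ghi by 0.75 ± 0.029 (edgeR adjusted p = 3.89e-16) and from NL to Ly6Glow by 1.40 ± 0.030 (edgeR adjusted p = 7.67e-21). On library totals the same differences were 0.41, 0.29 and 0.70, in the same direction, of which only Ly6Glow over NL passed the fold threshold of 0.58. Relative to the median gene they were 0.69, 0.84 and 1.56.

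*Bcl2l1*, which encodes the survival protein BCL-xL, set Ly6Glow apart from the other groups. Its level was 67.1, 61.4 and 67.5 FPKM in NL, 58.9, 59.3 and 55.4 in Ly6Ghi and 121.5, 123.3 and 119.9 in Ly6Glow. Every Ly6Glow library lay above all others. From Ly6Ghi to Ly6Glow it rose 2.49-fold (log2 fold change 1.32 ± 0.042 SE, edgeR adjusted p = 1.16e-16), and the call held on library totals, at 1.08. Against NL, Ly6Glow was higher by 1.59 ± 0.042 (edgeR adjusted p = 2.71e-19), or by 0.89 on library totals. For Ly6Ghi over NL the direction turned with the scaling. The log2 fold change was 0.28 ± 0.043 under TMM (edgeR adjusted p = 4.35e-06) and −0.19 on library totals, short of the fold threshold under both.

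*Bcl2*, the founding survival gene of the family, was the least abundant member in every group. Its level was 2.41, 2.55 and 3.07 FPKM in NL, 0.87, 0.87 and 0.78 in Ly6Ghi and 0.81, 0.69 and 0.73 in Ly6Glow. The NL libraries lay above all 6 from macrometastatic lung, and those of Ly6Ghi and Ly6Glow overlapped. The log2 fold change was −1.17 ± 0.096 for Ly6Ghi over NL (edgeR adjusted p = 2.03e-10) and −1.06 ± 0.10 for Ly6Glow over NL (edgeR adjusted p = 2.1e-09). Between Ly6Glow and Ly6Ghi it was 0.11 ± 0.12 (edgeR adjusted p = 0.459), and −0.12 on library totals. The higher level in NL went with the higher level of lung structural, macrophage and T and NK cell markers there (T and NK cell sum 83.1 to 86.4 CPM in NL, 50.6 to 53.2 in Ly6Ghi and 35.6 to 36.0 in Ly6Glow), whose part in it was not tested. Exons of *Bcl2* overlap *D630008O14Rik* on the opposite strand.

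The *Bcl2a1* genes, which encode the survival protein A1, were lower in macrometastatic lung than in NL, and they did not move alike. *Bcl2a1d* stood at 66.9, 66.7 and 66.9 FPKM in NL, at 12.8, 14.1 and 13.7 in Ly6Ghi and at 3.54, 4.23 and 4.22 in Ly6Glow. It showed the largest fall of any member, 10.3-fold from NL to Ly6Glow (−3.37 ± 0.087 on the log2 scale, edgeR adjusted p = 2.16e-19). The gene was also lower in Ly6Ghi than in NL by 3.57-fold (edgeR adjusted p = 7.87e-17) and lower in Ly6Glow than in Ly6Ghi by 2.89-fold (edgeR adjusted p = 1.19e-10). *Bcl2a1a* followed the same order, with 51.8, 52.7 and 41.8 FPKM in NL, 14.9, 12.9 and 11.8 in Ly6Ghi and 5.66, 7.16 and 6.96 in Ly6Glow. Its falls were 2.68-fold from NL to Ly6Ghi, 1.69-fold from Ly6Ghi to Ly6Glow and 4.52-fold from NL to Ly6Glow (edgeR adjusted p = 1.01e-11, 0.000101 and 8.92e-14).

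*Bcl2a1b* fell from NL like the others but did not fall further in Ly6Glow. It stood at 114.8, 117.7 and 114.4 FPKM in NL, at 36.3, 32.6 and 31.3 in Ly6Ghi and at 32.4, 31.7 and 34.2 in Ly6Glow. The log2 fold change was −1.33 ± 0.056 for Ly6Ghi over NL and −1.12 ± 0.057 for Ly6Glow over NL (edgeR adjusted p = 1.59e-15 and 4.21e-14). Between Ly6Glow and Ly6Ghi it was 0.21 ± 0.066 (edgeR adjusted p = 0.0112), below the fold threshold, and −0.03 on library totals. In exons it overlaps *Gm29094* on the same strand, to which the limit on shared reads also applies. As a share of the summed FPKM of the 3 genes, *Bcl2a1b* made up 49.2, 49.6 and 51.3% in NL, 56.7, 54.8 and 55.2% in Ly6Ghi and 77.9, 73.6 and 75.4% in Ly6Glow. The share of *Bcl2a1d* was 28.1 to 30.0% in NL, 20.0 to 24.1% in Ly6Ghi and 8.52 to 9.82% in Ly6Glow. These shares do not depend on the scaling of libraries, but they do depend on how reads common to the copies were assigned. With the counts of the 3 genes summed, which still depends on how reads shared with *Gm29094* were assigned, the log2 fold change was −1.48 for Ly6Ghi over NL and −1.73 for Ly6Glow over NL (both called), and −0.25 for Ly6Glow over Ly6Ghi (edgeR adjusted p = 0.000973, below the fold threshold).

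**Figure D1:**
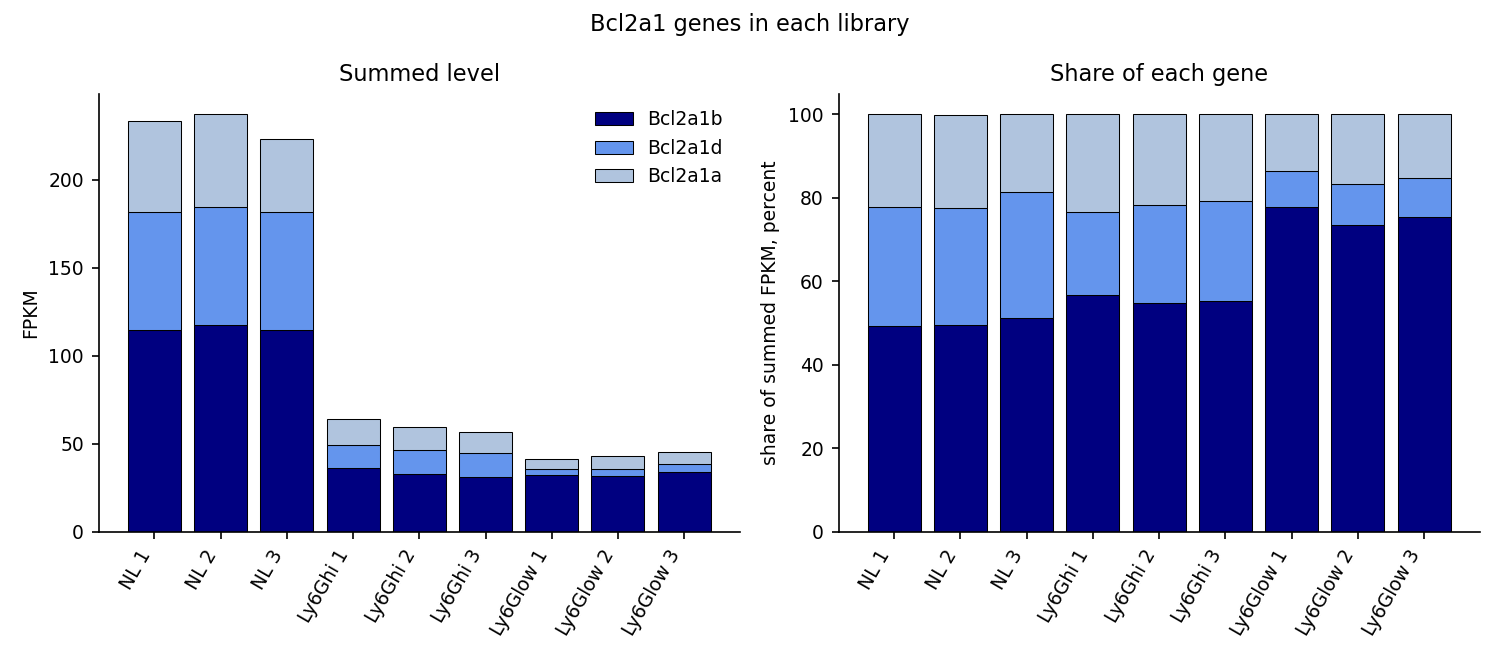
Stacked bars give the FPKM of Bcl2a1b, Bcl2a1d and Bcl2a1a in each library on the left, and the share of each in their sum, in percent, on the right. The sum is 223 to 237 FPKM in NL, 56.7 to 64.1 in Ly6Ghi and 41.6 to 45.4 in Ly6Glow, and the share of Bcl2a1b is highest in the 3 Ly6Glow libraries.

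*Bcl2l11*, which encodes the BH3-only protein BIM, had the highest log2 fold change of the 10 from Ly6Ghi to Ly6Glow, next to that of *Bcl2l1* (the difference between these genes was not tested). It stood at 63.0, 62.3 and 62.5 FPKM in Ly6Ghi, at 128.9, 126.6 and 130.1 in Ly6Glow and at 121.8, 124.0 and 123.2 in NL. Ly6Ghi was low, and Ly6Glow and NL lay close together. *Bcl2l11* was 2.56-fold higher in Ly6Glow than in Ly6Ghi (log2 fold change 1.36 ± 0.030 SE, edgeR adjusted p = 4.5e-19), and 1.12 on library totals. From NL to Ly6Ghi the change was −0.62 ± 0.030 (edgeR adjusted p = 1.68e-14), and −1.09 on library totals. Whether Ly6Glow exceeded NL depended on the scaling: the log2 fold change was 0.73 ± 0.029 under TMM (edgeR adjusted p = 5.29e-16) but 0.03 on library totals (edgeR adjusted p = 0.325), and 0.89 relative to the median gene under either.

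*Bid*, whose product links death receptors to the mitochondria once caspase-8 has cut it, showed the largest rise of any member against NL. It stood at 8.50, 7.83 and 8.04 FPKM in NL, at 25.7, 25.0 and 27.3 in Ly6Ghi and at 29.9, 30.0 and 29.8 in Ly6Glow. Both fractions of macrometastatic lung lay far above NL. The rise was 4.42-fold in Ly6Ghi (log2 fold change 2.15 ± 0.061 SE, edgeR adjusted p = 1.24e-18) and 5.99-fold in Ly6Glow (2.58 ± 0.060, edgeR adjusted p = 3.34e-20), and on library totals the log2 fold changes were still 1.68 and 1.88. Between the fractions the difference was 0.44 ± 0.051 (edgeR adjusted p = 1.73e-07), short of the fold threshold. Exons of *Bid* overlap *Bcl2l13* on the opposite strand, and whether strand was used in counting is not given in the sources used here. *Bcl2l13* itself differed from NL by 0.48 and 0.66 under TMM, and by 0.02 and −0.04 on library totals.

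The effectors *Bax* and *Bak1*, which form the pore in the mitochondrial outer membrane, moved apart. *Bak1* stood at 21.6, 19.4 and 19.2 FPKM in NL, at 32.8, 33.7 and 32.7 in Ly6Ghi and at 21.6, 23.4 and 21.2 in Ly6Glow. Ly6Ghi was above both other groups. *Bak1* rose 2.27-fold from NL to Ly6Ghi (log2 fold change 1.18 ± 0.056 SE, edgeR adjusted p = 1.03e-14), and 0.72 on library totals. For Ly6Glow over NL the change was 0.84 ± 0.059 under TMM (edgeR adjusted p = 1.27e-11) and 0.14 on library totals, and FPKM levels of these groups overlapped. Between Ly6Glow and Ly6Ghi it was −0.35 ± 0.055 (edgeR adjusted p = 1.48e-05), not called, but −0.583 on library totals (edgeR adjusted p = 5.1e-09), where it was called lower in Ly6Glow, as it was with limma on log2(FPKM + 0.1). Some marker sums were also highest in Ly6Ghi. That of 8 eosinophil and basophil genes was 100 to 106 CPM against 22.9 to 28.2 in Ly6Glow and 26.0 to 28.2 in NL. Of these 8, 7 were called higher in Ly6Ghi than in NL and 1 lower (all genes: 26.3% and 36.6%). The sum of 8 granule genes of immature neutrophils was 34400 to 35100 CPM against 12600 to 13100 in Ly6Glow and 5350 to 5660 in NL. The part of either list in the level of *Bak1* was not tested. *Bak1* exons overlap *Ggnbp1* on the opposite strand.

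For *Bax* the calls against NL depended on the scaling. Its level was 29.5, 28.4 and 33.2 FPKM in NL, 18.9, 18.1 and 20.2 in Ly6Ghi and 13.6, 15.4 and 13.9 in Ly6Glow. In FPKM the groups did not overlap and fell in that order. Under TMM no comparison passed both thresholds: the log2 fold change was −0.21 ± 0.077 for Ly6Ghi over NL (edgeR adjusted p = 0.0173), −0.39 ± 0.083 for Ly6Glow over NL (edgeR adjusted p = 0.000207) and −0.18 ± 0.089 for Ly6Glow over Ly6Ghi (edgeR adjusted p = 0.0942). On library totals the differences from NL were −0.67 and −1.09, both called. Relative to the median gene they were −0.12 and −0.23.

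**Figure D2:**
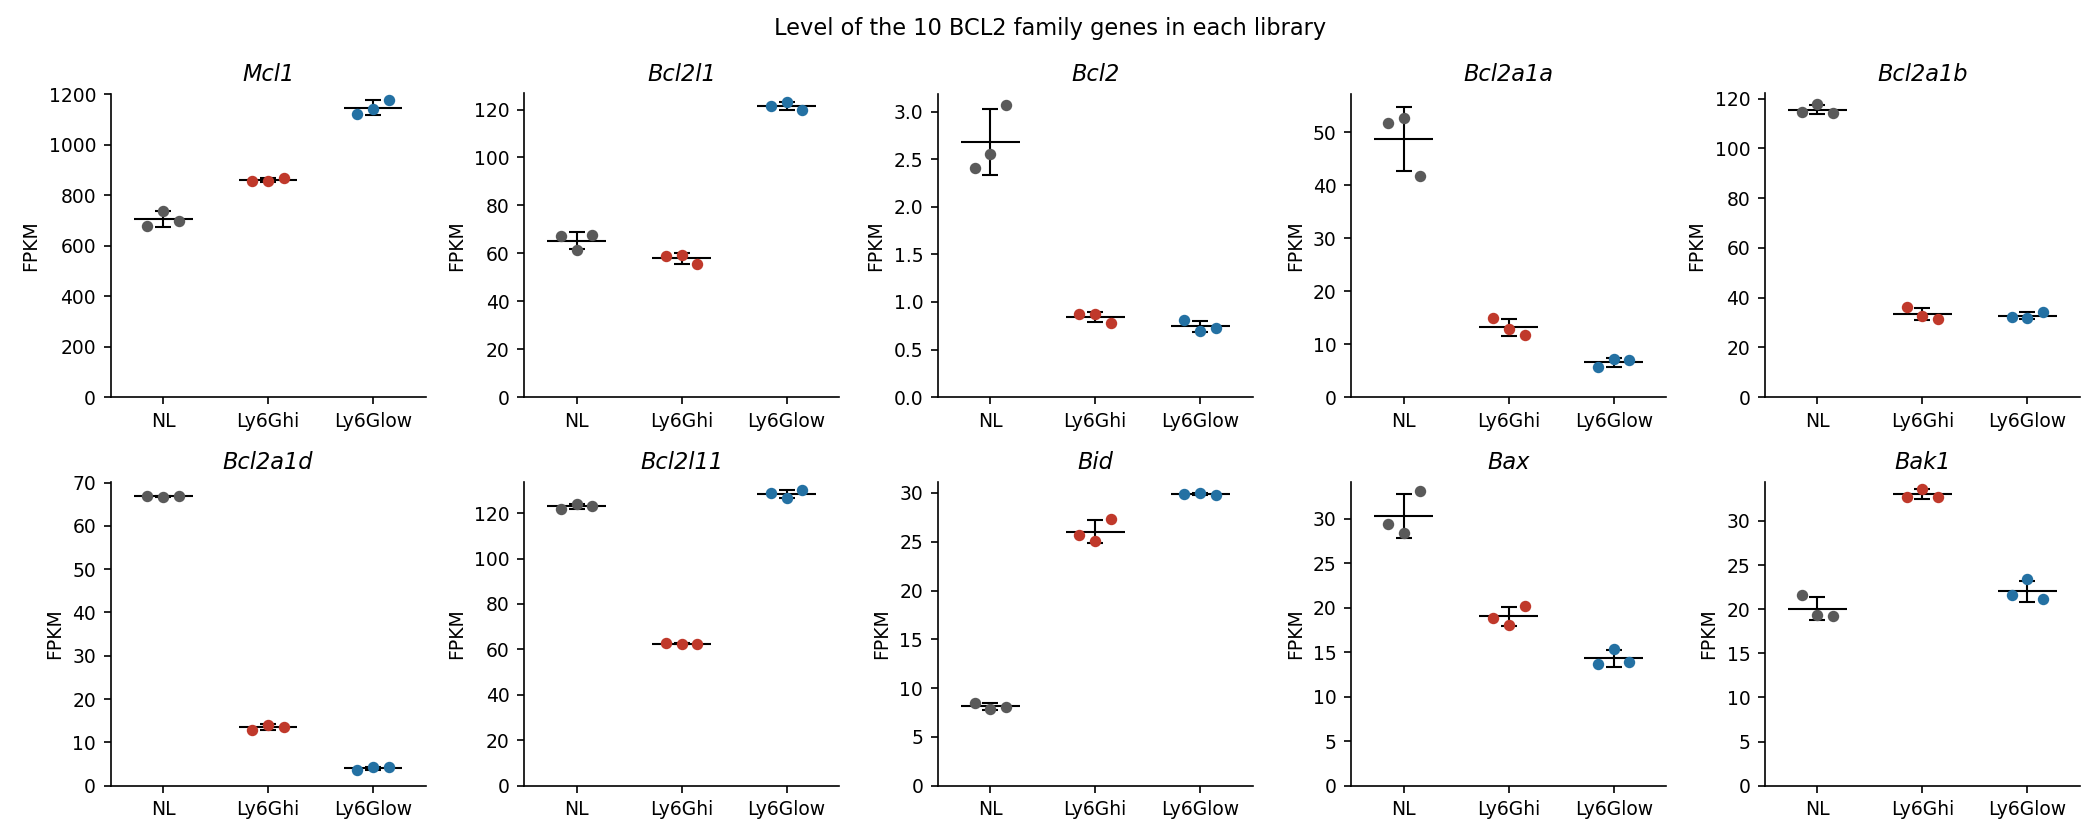
Points are single libraries, with FPKM on a linear axis from 0, for each of the 10 genes in NL, Ly6Ghi and Ly6Glow. Long bars are means and whiskers 1 SD over 3 libraries. Mcl1 climbs from 705.2 to 860.3 to 1147 FPKM in the mean, Bcl2l1 is highest in Ly6Glow, Bcl2l11 lowest in Ly6Ghi, and the Bcl2a1 genes highest in NL.

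Read together over the 14108 tested genes, 5 of the 10 members were called between Ly6Glow and Ly6Ghi, where 25.2% of all genes were. *Mcl1*, *Bcl2l1* and *Bcl2l11* were higher in Ly6Glow (3 of 10, against 9.29% of all genes) and *Bcl2a1a* and *Bcl2a1d* lower (2 of 10, against 15.9%). For 8 of 10 members the CPM values of both groups were without overlap, as for 62.1% of all genes. The genes that rose thus included 2 survival genes and 1 BH3-only gene, and both that fell are survival genes. On library totals *Mcl1* was not called, at 0.415, and with the near-identical *Bcl2a1* copies summed neither fall remained, at −0.249 for the sum. The median log2 fold change of the members was 0.16, against −0.04 over all genes.

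Against NL, calls were common throughout the transcriptome. For Ly6Ghi over NL 8 members were called, where 62.9% of all genes were, with *Bak1*, *Bid* and *Mcl1* higher (26.3% of all genes were) and *Bcl2*, the 3 *Bcl2a1* genes and *Bcl2l11* lower (36.6%). For Ly6Glow over NL 9 were called, where 69.5% of all genes were. *Mcl1*, *Bcl2l1*, *Bcl2l11*, *Bid* and *Bak1* were higher (28.7% of all genes were) and *Bcl2* and the 3 *Bcl2a1* genes lower (40.8%). All 10 members were without overlap in CPM in either comparison, as were 85.2% and 86.8% of all genes. The median of the members was −0.42 and 0.17, against −0.09 and −0.16 over all genes. The 3 comparisons share libraries in pairs, so that none of them repeats another.

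**Figure D3:**
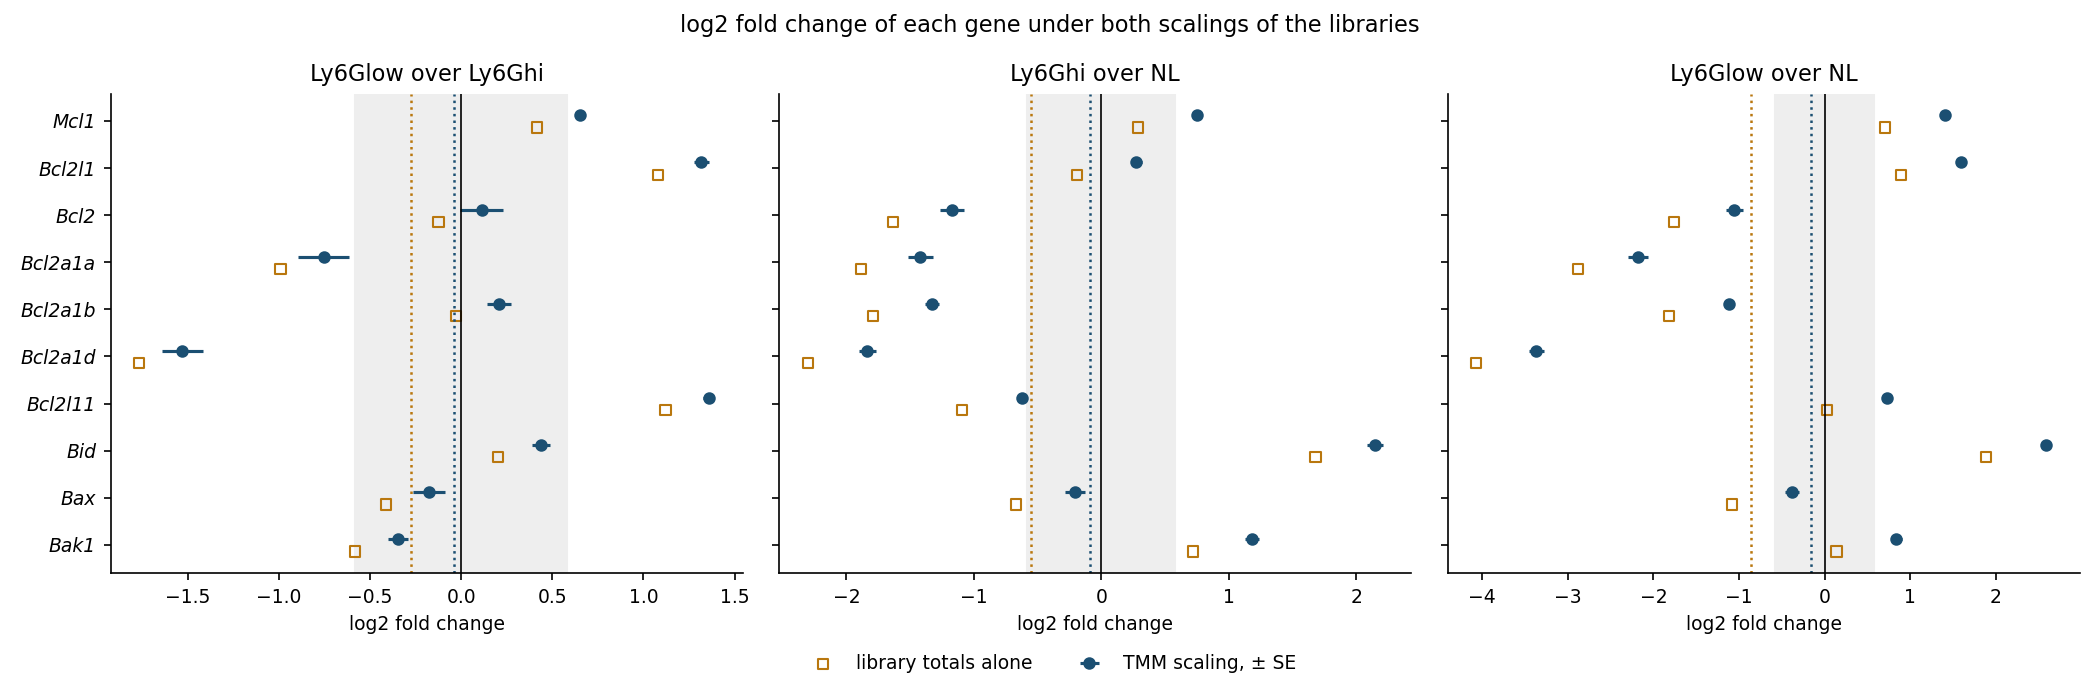
Filled points are log2 fold changes (x axis) with SE under TMM scaling, and open squares the same on library totals, for the 10 genes and 3 comparisons. Grey marks changes short of the threshold of 0.58 in size, and dotted lines the median of all tested genes under each scaling. By construction, every member keeps the same distance to the median line of its scaling. Mcl1 in Ly6Glow over Ly6Ghi and in Ly6Ghi over NL crosses the edge of the grey band. So do Bcl2l11 and Bak1 in Ly6Glow over NL, Bax against NL and, by a small margin, Bak1 in Ly6Glow over Ly6Ghi.

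Ratios between members within a library do not depend on how libraries are scaled to each other. With 3 libraries in a group an exact permutation test has a smallest two-sided p of 0.1, and these ratios are therefore described by their values. *Mcl1* per *Bcl2l11*, in FPKM, was 5.57, 5.96 and 5.67 in NL, 13.6, 13.7 and 13.9 in Ly6Ghi and 8.70, 9.02 and 9.06 in Ly6Glow. Ly6Ghi thus carried the most *Mcl1* RNA for each unit of the BIM gene, and NL the least. *Bcl2l1* per *Bcl2l11* was 0.495 to 0.551 in NL and overlapped between Ly6Ghi (0.886 to 0.952) and Ly6Glow (0.921 to 0.974), since both genes rose by like amounts between the fractions. *Bcl2l1* per *Bak1* was 3.11 to 3.51 in NL, 1.69 to 1.80 in Ly6Ghi and 5.27 to 5.67 in Ly6Glow. The order of these 3 groups thus changed with the pair of genes taken.

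Among the death genes the make-up also shifted. *Bcl2l11* supplied 67.1 to 69.1% of the summed FPKM of *Bcl2l11*, *Bid*, *Bax* and *Bak1* in NL, 43.8 to 44.9% in Ly6Ghi and 64.8 to 66.7% in Ly6Glow. *Bcl2l11* per *Bid* was 14.3 to 15.8 in NL, 2.29 to 2.49 in Ly6Ghi and 4.22 to 4.36 in Ly6Glow. *Bax* per *Bak1* was above 1 in NL (1.37, 1.47 and 1.72) and below 1 in Ly6Ghi (0.576, 0.538 and 0.618) and Ly6Glow (0.631, 0.659 and 0.656). The effector RNA in excess was therefore *Bax* in NL and *Bak1* in both fractions of macrometastatic lung.

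Among the survival genes *Mcl1* took a larger share in macrometastatic lung. It made up 69.1, 71.1 and 70.4% of the summed FPKM of the 6 survival genes in NL, 87.4, 87.7 and 88.5% in Ly6Ghi and 87.3, 87.2 and 87.7% in Ly6Glow. The 3 *Bcl2a1* genes made up 22.5 to 23.8% in NL, 5.78 to 6.53% in Ly6Ghi and 3.23 to 3.38% in Ly6Glow, and *Bcl2l1* 5.90 to 6.83%, 5.64 to 6.08% and 8.92 to 9.45%. The 6 survival genes per 4 death genes gave 5.53 ± 0.22 in NL, 6.96 ± 0.075 in Ly6Ghi and 6.74 ± 0.14 in Ly6Glow (SD, n = 3), with Ly6Ghi and Ly6Glow close together. Without *Mcl1* the order turned, to 1.65 ± 0.043 in NL, 0.84 ± 0.048 in Ly6Ghi and 0.85 ± 0.0052 in Ly6Glow. The sum is thus carried by *Mcl1*, and no such ratio stands for a balance of proteins.

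**Figure D4:**
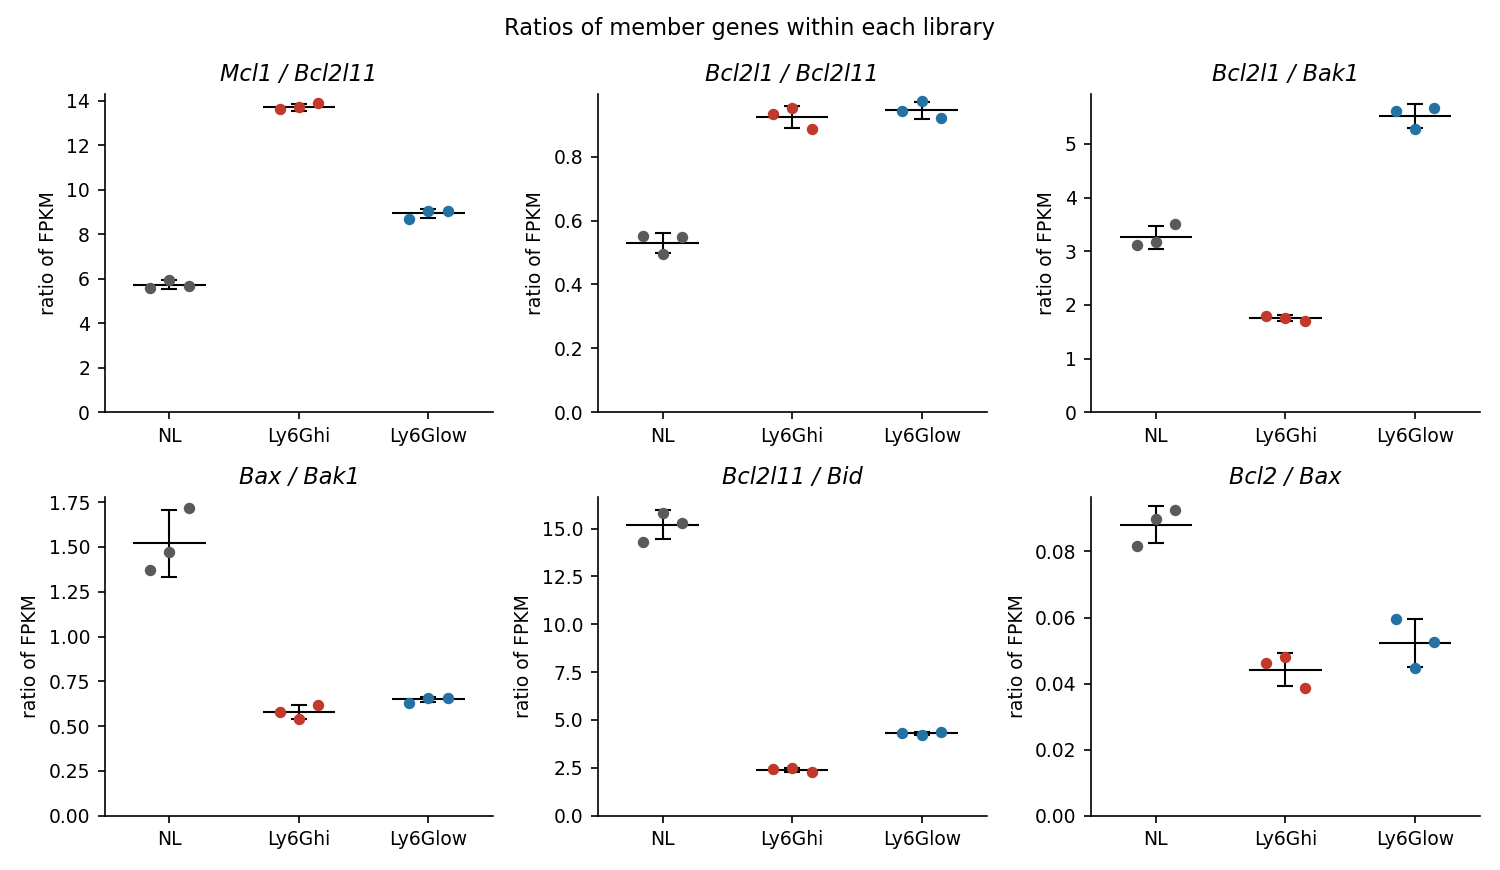
Each panel plots a ratio of FPKM between a pair of genes within a library, on a linear axis from 0, with points for libraries, long bars for means and whiskers for 1 SD over 3 libraries. Mcl1 per Bcl2l11 is highest in Ly6Ghi, at 13.7 in the mean, Bcl2l1 per Bak1 is highest in Ly6Glow, at 5.52, and Bax per Bak1, Bcl2l11 per Bid and Bcl2 per Bax are highest in NL.

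Of 16 further genes of the family or named after it, 13 were tested. Between Ly6Glow and Ly6Ghi 1 was called higher and 1 lower (all genes: 9.29% and 15.9%), or 1 and 3 on library totals. *Bnip3*, which encodes a mitochondrial protein of mitophagy, was the one that rose. It stood at 13.3, 15.3 and 14.2 FPKM in NL, 32.2, 33.7 and 32.2 in Ly6Ghi and 65.5, 65.3 and 68.9 in Ly6Glow. The groups formed 3 separate steps, with log2 fold changes of 1.26 from Ly6Ghi to Ly6Glow and 1.66 from NL to Ly6Ghi (edgeR adjusted p = 9.39e-16 and 1.88e-17). *Bmf*, a BH3-only gene, was the one that fell, by 0.66 on the log2 scale between Ly6Ghi and Ly6Glow (edgeR adjusted p = 0.00145), from a low level of 0.93 to 0.50 FPKM in the mean.

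Among the other BH3-only genes, 3 of 5 tested were higher and 2 lower in each comparison with NL (all genes: 26.3% and 36.6% for Ly6Ghi, and 28.7% and 40.8% for Ly6Glow). *Bbc3*, the p53 target PUMA, had log2 fold changes of 1.35 in Ly6Ghi and 1.38 in Ly6Glow (edgeR adjusted p = 8.15e-11 and 9.66e-11). *Bad*, a BH3-only gene whose product is held inactive by phosphorylation, had 1.16 and 1.14, and *Pmaip1*, which encodes the MCL1-binding protein NOXA, 0.95 and 0.71. On library totals the same values were 0.89 and 0.68 for *Bbc3*, 0.69 and 0.44 for *Bad* and 0.49 and 0.01 for *Pmaip1*, so that the last call held in neither comparison and that on *Bad* in Ly6Ghi only. In FPKM *Pmaip1* was 16.9 to 20.7 in NL, 25.7 to 26.8 in Ly6Ghi and 17.9 to 19.7 in Ly6Glow, the last overlapping NL. *Bmf* fell by 1.10 and 1.76 on the log2 scale. *Bik*, another BH3-only gene, was at 1.84 to 2.24 FPKM in NL and at no more than 0.54 in any other library, and was called lower in both.

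The remaining survival and effector genes were lower in macrometastatic lung. *Bcl2l2*, which encodes the survival protein BCL-w, was at 7.52 to 8.25 FPKM in NL, 1.55 to 2.79 in Ly6Ghi and 1.27 to 1.56 in Ly6Glow (edgeR adjusted p = 8.97e-13 and 1.04e-13 against NL). *Bok*, an effector-like gene, was at 0.97 to 1.28 FPKM in NL and at 0.04 to 0.16 in the other libraries, a handful of counts at most, and was called lower in both comparisons. *Bcl2a1c*, a shorter relative of the *Bcl2a1* members, was called lower against NL in both, at 2.85 to 3.67 FPKM in NL and 0.19 to 2.05 in the others. *Bcl2*, *Bax*, the *Bcl2a1* members, *Bcl2a1c*, *Bcl2l2*, *Bmf*, *Bik* and *Bok* all had their highest mean level in NL. That group also had the highest sum of lung structural markers, whose part in this was not tested. *Bnip3l*, a mitophagy gene related to *Bnip3*, and *Bcl2l15* were called higher in both comparisons, *Bcl2l13* in Ly6Glow (where library totals turn its sign), and *Bcl2l12* in neither. With library totals *Bnip3l* was at 0.47 in Ly6Ghi and 0.54 in Ly6Glow, both short of the fold threshold. *Bcl2l15*, with at most 38.3 estimated counts in a library, was at 0.60 in Ly6Ghi and at 0.49, short of the threshold, in Ly6Glow. On library totals 4 of the 13 genes were higher and 5 lower for Ly6Ghi over NL, against 6 and 5 under TMM, and 2 were higher and 6 lower for Ly6Glow over NL, against 7 and 5. *Bcl2l10*, *Hrk* and *Bcl2l14* did not pass the filter on low counts.

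**Figure D5:**
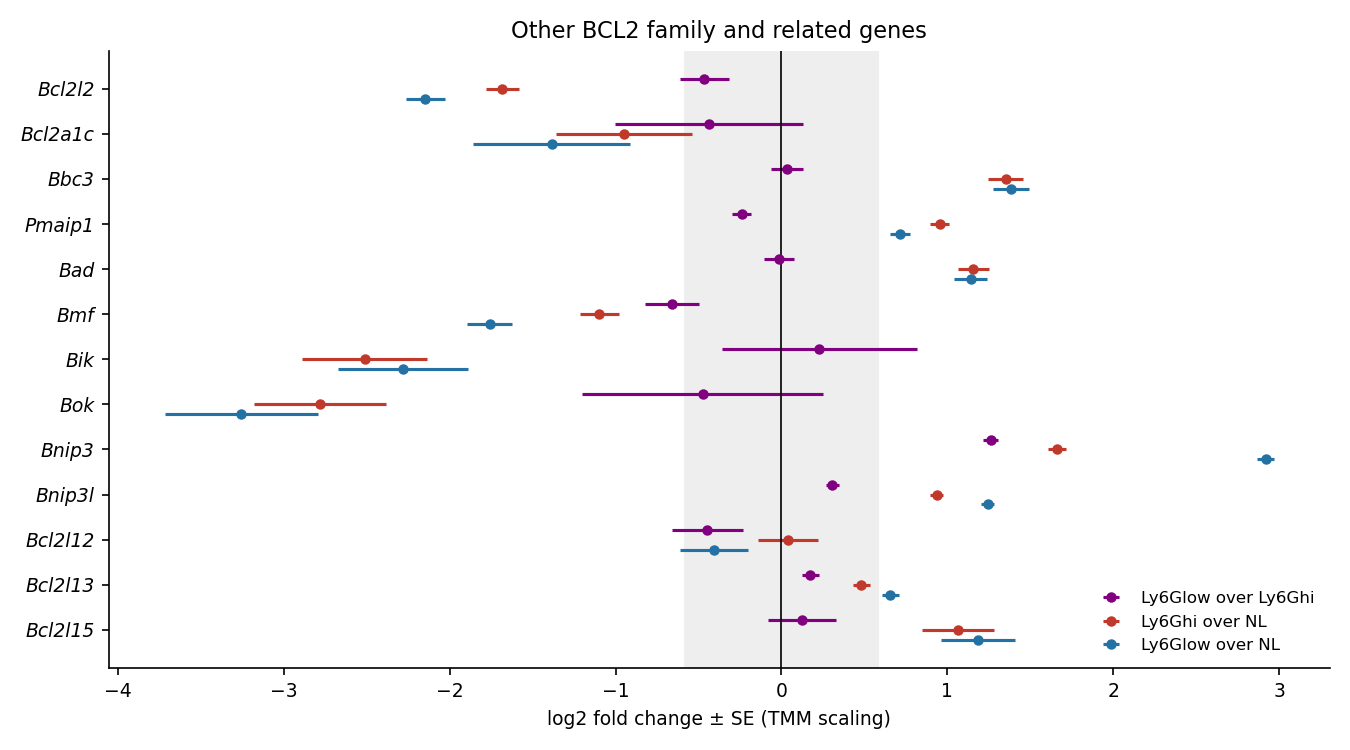
Points are log2 fold changes (x axis, TMM scaling) with SE for 13 further family or related genes in the 3 comparisons, and grey marks changes short of the threshold of 0.58 in size. Bnip3 lies furthest to the right, at 2.92 in Ly6Glow over NL, and Bik and Bok lie furthest to the left in Ly6Ghi over NL.

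In and downstream of the mitochondria, 15 genes were tested, among them mitochondrial channel genes and genes of the apoptosome, caspase and inhibitor machinery. Between Ly6Glow and Ly6Ghi 1 was called, *Birc3*, an inhibitor of apoptosis gene, at 98.5 to 99.4 FPKM in Ly6Ghi and 142.4 to 145.2 in Ly6Glow (log2 fold change 0.77, edgeR adjusted p = 3.34e-15, and 0.54 on library totals). Their median was −0.12, against −0.04 over all genes. For Ly6Ghi over NL 4 were higher and 1 lower (all genes: 26.3% and 36.6%), and for Ly6Glow over NL 6 were higher and 1 lower (28.7% and 40.8%), with medians of 0.39 and 0.38 (all genes −0.09 and −0.16). *Apaf1*, the scaffold of the apoptosome, rose 2.71-fold and 2.49-fold (edgeR adjusted p = 3.91e-19 and 1.99e-18). *Endog*, a mitochondrial nuclease gene of low level, was the one called lower. On library totals the counts changed, to 5 called, all lower, for Ly6Glow over Ly6Ghi, to 2 higher and 1 lower for Ly6Ghi over NL and to 2 higher and 6 lower for Ly6Glow over NL.

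In the path from death receptors to BID, 9 genes were tested. *Fas*, the receptor gene, was the 1 called between the fractions under TMM, at 27.8, 29.8 and 26.5 FPKM in Ly6Ghi and 44.5, 45.6 and 46.2 in Ly6Glow, with 39.1, 39.1 and 41.2 in NL. The log2 fold change was 0.93 (edgeR adjusted p = 6.74e-13), or 0.70 on library totals, and the median of the list 0.35, against −0.04 over all genes. DESeq2 called 2 of the 9 higher, with *Tnfrsf1a*, a receptor gene, as the other, and library totals called *Fas* higher and *Fadd*, an adaptor gene, lower, at −0.65. For Ly6Ghi over NL 1 was higher, the adaptor gene *Tradd* at 2.52-fold, and 2 were lower, *Fadd* and the ligand gene *Fasl* (all genes: 26.3% and 36.6%). *Fasl* had 12 to 15 estimated counts in Ly6Ghi and 21 to 34 in NL (edgeR adjusted p = 0.036), and DESeq2 called 1 gene lower rather than 2. For Ly6Glow over NL 4 were higher, led by *Tradd* at 2.36-fold and the receptor gene *Tnfrsf10b* at 1.87-fold, and *Fadd* was lower by 2.45-fold (all genes: 28.7% and 40.8%). DESeq2 called 6 higher and 1 lower. On library totals 3 were called in that last comparison, all lower.

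Of 10 genes whose products are known to act on BCL2 family genes or proteins, 0 were called between Ly6Glow and Ly6Ghi by edgeR or by DESeq2, although 8 by edgeR and 8 by DESeq2 had an unadjusted p under 0.05. Those 8 in edgeR had an edgeR adjusted p from 6.39e-11 (*Mdm2*) to 0.00445 (*Fbxw7*), and missed only the fold threshold. The largest log2 fold change of the list was 0.51, for *Ddit3*. Its median was 0.30 under TMM, against −0.04 over all genes. For Ly6Ghi over NL 3 were higher and 1 lower (all genes: 26.3% and 36.6%), and for Ly6Glow over NL 5 were higher and 1 lower (28.7% and 40.8%). *Foxo3*, a transcription factor known to induce *Bcl2l11*, rose 2.11-fold and 2.49-fold (edgeR adjusted p = 4.53e-17 and 1.24e-18), with FPKM of 15.1 to 15.4 in NL, 22.8 to 24.3 in Ly6Ghi and 22.8 to 24.1 in Ly6Glow. Between the fractions its log2 fold change was 0.24 under TMM (edgeR adjusted p = 9.01e-06), below the fold threshold and without overlap in CPM, while the FPKM ranges overlapped. On library totals the list had 1 higher and 3 lower in each comparison with NL.

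For each member the gene with the closest pattern over the 9 libraries was sought among 7389 genes of at least 10 CPM in the mean, by the distance between centred log2 CPM values. *Bcl2l11* lay closest to *Il1b*, an inflammatory cytokine gene, at a distance of 0.14 log2 units, and *Mcl1* to *Map2k4* at 0.085. *Bid* lay closest to *Eps8* at 0.17, *Bak1* to *Degs1* at 0.15, *Bax* to *Tmco1* at 0.21, *Bcl2* to *Ccl2* at 0.24 and *Bcl2l1* to *Cd300ld* at 0.33. The *Bcl2a1* genes had different neighbours, *Tcf12* for *Bcl2a1a* (0.25), *Rnf213* for *Bcl2a1b* (0.25) and *Sh3tc1* for *Bcl2a1d* (0.24). With 3 groups these patterns rest on 3 group levels, and a close match among so many genes is a description only.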

How the data were processed

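Bulk RNA-seq was available for 9 libraries, made per the labels from poly(A) RNA with strand marking. Per gene and library the authors deposited both an estimated count without normalization and an FPKM value, scaled for transcript length and sequenced fragments. The build is mm10 in the submitters' processing notes, and the aligner and counter are not given in the sources used here. Of 22064 genes 3739 were blank, 18325 had values and 14108 passed edgeR's filterByExpr. Of the estimated counts 37.9% were whole, and all were rounded for the tests.

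Counts were fitted in R 4.3.3 with edgeR 4.0.16 (TMM, quasi-likelihood F test, all 9 libraries, no covariate). The Benjamini-Hochberg adjustment ran over the 14108 genes. Calls needed an adjusted p no higher than 0.05 together with a log2 fold change beyond 0.58 in either direction, the fold threshold of the study's methods. The study's own tool, DESeq2 (version 1.42.0 here), and limma 3.58.1 on log2 FPKM served as alternatives. The biological coefficient of variation was 0.0346, which covers the spread between these libraries only. The tests were tried on simulated data. Replicates of a group differed by more than counting noise, so none was counted as a duplicate of another's counts. This check cannot tell libraries of separate mice from libraries of a shared pool.

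The 10 members, the gene lists and the motifs were chosen with earlier results of these data known. All members were named, as was every tested gene of the other family lists. Of the 3 pathway lists, the 2 largest called rises and the 2 largest called falls per comparison were named. *Ly6g* was added as the sort marker after its values were seen. Transcripts were those of GENCODE, and promoter windows those around RefSeq starts. Identities came from pairwise alignment with Biopython 1.88, and the marked sequences from alignment with MAFFT. All 10 members matched a promoter window, *Bcl2l1* 3 and *Bcl2l11* 2 of them.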

Additional observations from a re-analysis of the deposited data

How the results depend on the processing

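Of 540 refits of single members under an alternative, 495 kept direction and call, 22 kept the direction but lost the call, 10 gained one and 13 changed sign. The 180 refits without a library were among those that kept both, and the count of called members stayed at 5, 8 and 9 for Ly6Glow over Ly6Ghi, Ly6Ghi over NL and Ly6Glow over NL. For Ly6Glow over Ly6Ghi the count was 8 without a fold threshold, 3 with a threshold of 1, and 3 of 8 features with the *Bcl2a1* genes summed. Sign changes came with library totals, with limma on FPKM (pseudocount 1, the same with a filter at FPKM 1, or pseudocount 0.1), or with the summed *Bcl2a1* genes. For *Bcl2* in Ly6Glow over Ly6Ghi they gave −0.124, −0.078, −0.078 and −0.158. For *Bcl2a1b* in the same comparison they gave −0.029, −0.026, −0.026 and −0.027, and −0.249 with the summed genes. For *Bcl2l1* in Ly6Ghi over NL they gave −0.189, −0.171, −0.171 and −0.174. Scaling by totals lowers all genes alike, by its construction. Upper-quartile scaling gave 0.56 for *Mcl1* in Ly6Ghi over NL and 0.54 for *Bcl2l11* in Ly6Glow over NL, and a minimum of 10 counts in every library gave 0.58 and 0.55, all short of the fold threshold.

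Deviations of libraries with the same replicate number correlated between −0.07 and 0.08 across genes, and the labels tie no number to an animal or batch, so no pairing was assumed. A fit with a replicate block gave 5, 8 and 9 called members, and 3522, 8856 and 9775 called genes in all, against 3560, 8874 and 9809 without it.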

Other observations

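The 6 B cell genes found summed to 65.2 to 66.8 CPM in Ly6Ghi, 35.5 to 39.2 in Ly6Glow and 74.9 to 81.8 in NL. Gene by gene the order of Ly6Ghi and NL differed from that of the sums. For Ly6Ghi over NL 3 of the 6 were called higher and 1 lower (all genes: 26.3% and 36.6%). Their median log2 fold change was 0.59. The 6 dendritic cell genes summed to 10.6 to 13.2 CPM in Ly6Ghi, 13.0 to 14.9 in Ly6Glow and 33.2 to 38.2 in NL.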
